A study of Mus musculus with 22 samples.

Results

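This comparison set astrocytes of the optic nerve head (ONH) against astrocytes of the optic nerve proper (ONP) 7 days after microbeads had been injected into one eye to raise its intraocular pressure (IOP). It used 8 of the 22 libraries of the series, the 4 ONH and the 4 ONP libraries labelled with day 7, and the other 14 libraries, 7 for each region at day 30, served only to ask which of the regional differences were also measured there. All mice carried an Rpl22 gene with a hemagglutinin (HA) tag on both alleles, switched on by a GFAP-Cre transgene, on a C57Bl/6 background, and were 3 to 4 months old. The Cre acts wherever the GFAP promoter is or has been active, which defines the cells whose ribosomes carry the tag. Each library pooled tissue of 4 mice, 2 of them male and 2 female, and the ONP was the stretch of nerve next to the ONH, cut to equal length. The study states that ONH and ONP tissue came from the same mice. The labels do not say which ONH and ONP pools of day 7 belong together, so the regions were compared without pairing. HA-tagged ribosomes were pulled down and the attached mRNA was sequenced, so the counts stand for mRNA on ribosomes. Every mouse compared here had been injected, so the values describe 2 regions of pressure-exposed nerve, and untreated nerves were not analysed here. Pools are named by region and by the number that their column carries, which is 1, 3, 5 and 6 in ONH and 1, 2, 5 and 6 in ONP.

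The axons of retinal ganglion cells leave the eye unmyelinated through the ONH, where astrocytes form glial tubes around the axon bundles, and become myelinated as they enter the ONP. Astrocytes of both regions are known to buffer potassium and water, take up glutamate and hand on metabolites to axons, and in the myelinated nerve they work beside oligodendrocytes. The ONH lies next to retina, pigment epithelium, choroid and sclera, and is regarded as a first site of axon damage when IOP is raised.

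Libraries held 16292489 to 33307092 counts, and levels are given in CPM, counts relative to the normalised size of each library. The floor of detection was set at 3 counts, equal to 0.0901 to 0.184 CPM, and covers counting error only. The first principal component of the 2000 most variable genes held 47.2% of the variance and separated the regions, with all 4 ONH pools on one side and all 4 ONP pools on the other (exact two-sided permutation test, p = 0.0286, the smallest that 70 splits of 4 against 4 allow). ONP pools were more alike than ONH pools. The correlation of log2 CPM between pools was 0.946 to 0.951 within ONP and 0.867 to 0.899 within ONH. The second component, with 20.7% of the variance, spread the ONH pools from pool 3 to pool 6 and left the ONP pools close together. Markers of oligodendrocytes summed to 25870.4 to 50607 CPM in ONH and 101921 to 132847 CPM in ONP, so the pulled-down mRNA was not that of astrocyte genes alone.

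Of 14752 genes tested, 1940 (13.2%) differed between the regions at an adjusted p below 0.05 in edgeR's quasi-likelihood test. Of these, 936 (6.34% of genes tested) were higher in ONH and 1004 (6.81%) were higher in ONP. The count of calls in each list below is to be read against these shares. Pools of the regions did not overlap for 1545 genes with ONH above ONP (10.5%) and for 1694 with ONP above ONH (11.5%). Genes called higher in ONH had a median log2 fold change of 1.28, and 153 of them exceeded 3. Those called higher in ONP had a median size of 1.34, and 19 of them exceeded 3. The count of calls moved with the fit. It was 3211 with DESeq2 and 3785 when all 22 libraries shared one estimate of the spread, and in the fits without ONP pool 2, 5 or 6 it was 1147, 1173 and 1102. The count for ONH was 577, 481, 496 and 471 without ONP pool 1, 2, 5 or 6, and that for ONP was 666 and 631 without ONP pool 2 or 6. Scaling to library size alone put 1392 calls in ONH and 840 in ONP, and shifted the median log2 fold change of all genes from 0.07 to 0.18, so each log2 fold change below is to be read against a median of 0.07.

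Mgarp, Tmem37, Tes and Cartpt were among the genes that set ONH apart. Mgarp (ENSMUSG00000037161, chr3:51388412-51396738, minus strand), which encodes a protein of the mitochondrial membrane, was measured at 238, 251, 281 and 162 CPM in ONH and at 18.6, 9.93, 5.98 and 13 CPM in ONP. Every ONH pool lay above every ONP pool (log2 fold change 4.30 ± 0.35 SE, edgeR adjusted p = 0.000211). Tmem37 (ENSMUSG00000050777, chr1:120067377-120074074, minus strand), a relative of calcium channel gamma subunits, stood at 156, 182, 175 and 176 CPM in ONH against 26.4, 25, 16.3 and 24 CPM in ONP. It had the smallest p-value of the genes higher in ONH, with a log2 fold change of 2.91 ± 0.19 (edgeR adjusted p = 9.95e-05). Tes (ENSMUSG00000029552, chr6:17065149-17105828, plus strand), which encodes the focal adhesion protein testin, stood at 393, 440.3, 330.3 and 252 CPM in ONH and 54.6, 45.6, 31 and 30.6 CPM in ONP, again without overlap (log2 fold change 3.13 ± 0.26, edgeR adjusted p = 0.000211).

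Cartpt (ENSMUSG00000021647, chr13:99898489-99901091, minus strand), the precursor of the CART neuropeptide, reached 1639, 1225, 2737 and 841 CPM in ONH and 33.1, 14.1, 3.34 and 8.96 CPM in ONP. The mean in ONH was 108 times that in ONP (log2 fold change 6.76 ± 0.73, edgeR adjusted p = 0.000305). Prss56, a trypsin-like protease known for its role in eye growth, was also far higher in ONH pools, at 263, 374, 114 and 106 CPM, and in ONP it was seen mostly in pool 1, with 4.47, 0.7, 0.0407 and 0.592 CPM. Differences without overlap were also found for Rgs2, a regulator of G protein signalling (531 ± 117 CPM in ONH and 119.9 ± 14 CPM in ONP, mean ± SD, n = 4 each, in this order wherever a pair of means is given), and for Pla2g5, a secreted phospholipase (36.3 ± 9.77 and 1.34 ± 0.514 CPM). Orm2, an acute phase plasma protein gene, had 14.8 ± 3.13 CPM in ONH and 0.251 ± 0.136 CPM in ONP. Cntnap2, of the neurexin family, was higher by 4.07 ± 0.38 on the log2 scale, Ankrd33b by 2.54 ± 0.32, Bok, of the BCL-2 family, by 2.11 ± 0.37 and Clec18a, a C-type lectin, by 6.18 ± 1.04.

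Some genes with large fitted fold changes had few or no counts in ONP. Pnliprp1 and Pnliprp2, relatives of pancreatic lipase, had no counts in any ONP pool. In ONH Pnliprp1 was at 9.04, 6.08, 2.28 and 2.63 CPM and Pnliprp2 at 10.8, 2.54, 6.83 and 1.34 CPM. Against the floor of 3 counts per library they were at least 35.9-fold and 39.1-fold higher in ONH. Gnat2, of cone phototransduction, had no counts in ONP either and was at least 48.8-fold higher in ONH, at 3.98, 0.999, 8.88 and 13.3 CPM. Rab38, a GTPase of pigment granule traffic, had 518 counts over the ONH pools and 3 over the ONP pools, a ratio of 179 with an exact 95% counting interval from 60.9 to 871. Mab21l1, an eye development gene, had 886 and 3 counts, a ratio of 306 (104 to 1487).

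**Figure D1:**
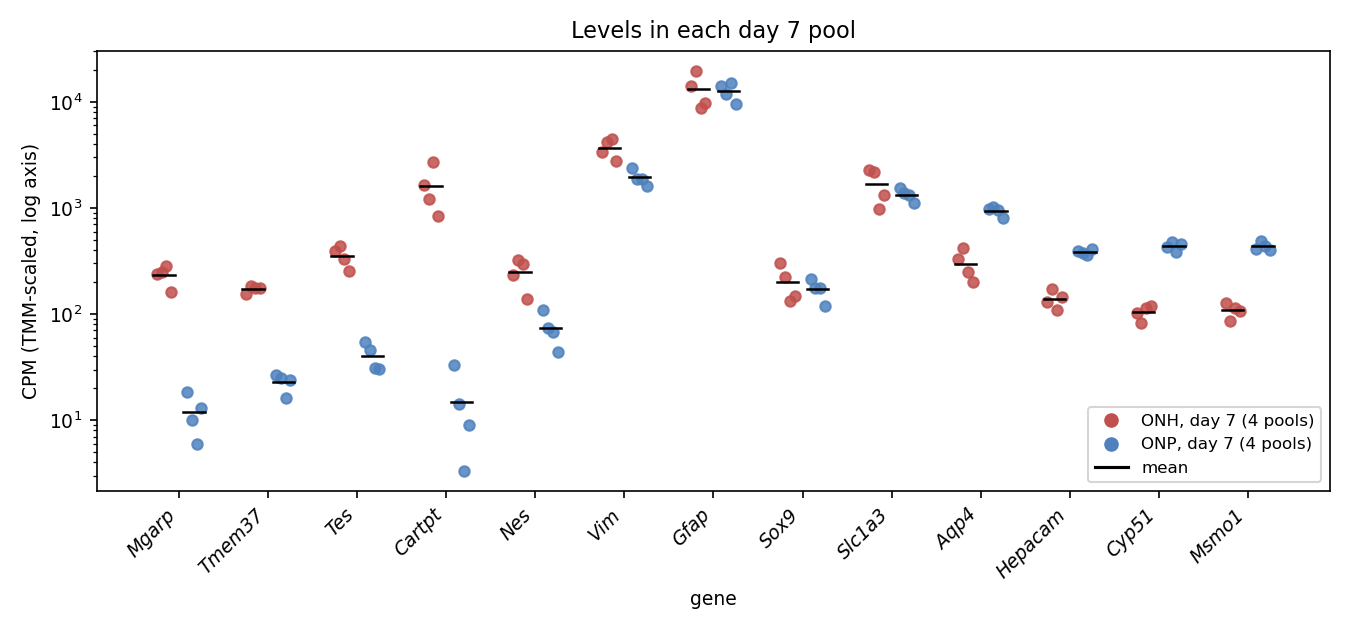
Level of 13 genes in each day 7 pool, in CPM on a log axis, with 1 point per pool and a bar at the mean of the 4 ONH (red) or 4 ONP (blue) pools. Mgarp, Tmem37, Tes, Cartpt, Nes and Vim lie higher in all ONH pools, Aqp4, Hepacam, Cyp51 and Msmo1 lie higher in all ONP pools, and the pools of Gfap, Sox9 and Slc1a3 overlap.

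Genes that mark astrocytes as such were present at high level in both regions, and a part of the homeostasis set was higher in ONP. Gfap, the intermediate filament gene whose promoter drives the Cre, was at 14241, 19667, 8767 and 9857 CPM in ONH and 14072, 11907, 15093 and 9511 CPM in ONP. These ranges overlapped (log2 fold change 0.05 ± 0.26, edgeR adjusted p = 0.913), and the sign of the difference turned when ONH pool 1, ONH pool 3 or ONP pool 6 was left out, to -0.0040, -0.22 and -0.064. At day 30 Gfap was higher in ONP (log2 fold change -0.50, edgeR adjusted p = 0.0397), but the difference between the days did not pass the test (0.53 ± 0.32, edgeR adjusted p = 0.519). Sox9, an astrocyte transcription factor, had 202 ± 78.5 and 171 ± 39.4 CPM in ONH and ONP, Slc1a3, a glutamate transporter, 1695 ± 652 and 1339 ± 179, Aldh1l1, of folate metabolism, 135 ± 45.7 and 161 ± 31.6, and S100b, a calcium binding protein, 1156 ± 285 and 753 ± 73.1 (edgeR adjusted p = 0.611, 0.424, 0.519 and 0.0575). None of these passed the threshold, and without ONH pool 1 the log2 fold change of Sox9 was -0.043. The difference in S100b passed it with DESeq2, with library size scaling, with all 22 libraries in one fit and without ONH pool 6.

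Of 35 astrocyte identity and homeostasis genes tested, 7 were higher in ONP and 2 in ONH, with a median log2 fold change of -0.16 beside 0.07 for all genes tested. The shares were 20.0% higher in ONP and 5.71% higher in ONH, beside 6.81% and 6.34% of all genes. Aqp4, the water channel of astrocyte endfeet, was at 330.0, 415, 249.5 and 202 CPM in ONH and 984, 1021, 957 and 799 CPM in ONP. All ONP pools exceeded all ONH pools (log2 fold change -1.65 ± 0.22, edgeR adjusted p = 0.00106). Hepacam, an adhesion molecule of the same endfeet, was at 129, 173, 109 and 145 CPM in ONH and 392, 377, 364 and 414 CPM in ONP (log2 fold change -1.48 ± 0.17), and Agt, which encodes angiotensinogen, had 569.8 ± 230.1 and 1635 ± 246 CPM. Sparcl1, the secreted synapse organizer hevin, Kcnj10, the inward rectifier Kir4.1, Slc1a2, the second main glutamate transporter, and Atp1b2, a sodium pump subunit, were lower in ONH by smaller amounts, with log2 fold changes of -0.88 ± 0.21, -0.78 ± 0.21, -0.70 ± 0.19 and -0.82 ± 0.24. Cst3, the protease inhibitor cystatin C, and Cldn10, a claudin, were higher in ONH, by 0.71 ± 0.18 and 2.60 ± 0.70. These last 6 calls were each lost when certain single pools were left out, Sparcl1 without ONP pool 1, 2 or 5, Kcnj10 without ONH pool 1 or 6 or ONP pool 1, 2 or 6, and Slc1a2 without ONH pool 1, 3 or 6 or ONP pool 1, 2 or 5. Atp1b2 was lost without ONH pool 6 or any ONP pool, Cst3 without ONH pool 1 or any ONP pool and Cldn10 without ONH pool 1 or 5 or any ONP pool. The highest edgeR adjusted p over these fits was 0.0599 for Sparcl1, 0.0959 for Kcnj10, 0.116 for Slc1a2, 0.127 for Atp1b2, 0.0968 for Cst3 and 0.106 for Cldn10, and the list held 3 to 7 calls higher in ONP and 0 to 3 higher in ONH.

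Other intermediate filament transcripts were higher in ONH. Of 8 such genes 3 were called, all higher in ONH, and the same number was called whichever pool was left out. Nes, which encodes nestin, was at 235, 325, 296 and 138 CPM in ONH and 110.2, 73.7, 68.1 and 43.7 CPM in ONP (log2 fold change 1.75 ± 0.32, edgeR adjusted p = 0.00529). Vim, which encodes vimentin, was at 3375, 4158, 4492 and 2749 CPM in ONH and 2378, 1889, 1872 and 1616 CPM in ONP (log2 fold change 0.93 ± 0.19), and Lmna, of the nuclear lamina, differed by 0.73 ± 0.15. Of 17 keratins tested, 3 were higher in ONH, 17.6% beside 6.34% of all genes. Among them were Krt18 with 48.1, 8.29, 50.3 and 87.7 CPM and Krt8 with 11.1, 1.21, 8.6 and 34.2 CPM, against at most 1.21 and 1.15 CPM in ONP. ONH pool 3 was the lowest of the ONH pools for both keratins, as it was for the summed markers of pigment cells, and the call of Krt8 was lost in limma-voom with quality weights.

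Transcription factors that pattern the optic primordium were called higher in ONH more often than in ONP. Of 34 such genes tested, 12 were higher in ONH and 1 in ONP, with a median log2 fold change of 1.26, and 31 of the 34 had a positive sign. Without ONP pool 1, 2 or 6 the number was 6, without ONH pool 1 or ONP pool 5 it was 8, and with DESeq2 or all 22 libraries in one fit it was 20 or 21. Six6, needed for eye and optic nerve development, was at 86.3, 83.2, 66.4 and 52.5 CPM in ONH and 33.3, 16.2, 29.9 and 19.2 CPM in ONP, with no overlap (log2 fold change 1.55 ± 0.27, edgeR adjusted p = 0.00424). Vax2, of the ventral optic cup, was at 6.27, 7.59, 9.68 and 5.98 CPM in ONH and 2.48, 1.97, 1.18 and 2.07 CPM in ONP. Rax, the retinal homeobox gene, was at 33.2, 12.5, 31.1 and 9.17 CPM in ONH and 2.48, 2.36, 1.91 and 0.592 CPM in ONP. In the other direction Nkx6-2, a homeobox gene of myelinating oligodendrocytes, was at 102, 71.4, 155 and 69.3 CPM in ONH and 212, 230.4, 237 and 282 CPM in ONP, and Nkx2-9, outside this list, had 1.19 ± 0.667 and 9.69 ± 2.01 CPM. Otx2, Rax, Six3 and Lhx2, among the 12, are known from retina or pigment epithelium as well, and markers of photoreceptors (15 of 17) and of pigment cells (16 of 22) were called higher in the same ONH pools. Their part in the result was not tested. No Hox gene passed the filter on low counts.

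Sterol synthesis had the largest share of called genes among the 35 gene lists, 83.3%, and its genes were higher in ONP. Of 24 genes tested, 20 were higher in ONP and 0 in ONH, all 24 had a negative sign, and the median log2 fold change was -1.76. The count stayed at 19 to 22 when each pool was left out. Cyp51, lanosterol demethylase (ENSMUSG00000001467, chr5:4081145-4104746, minus strand), was at 102, 82, 113 and 119 CPM in ONH and 427, 473, 386 and 459.6 CPM in ONP. Msmo1, the next methylsterol oxidase of the pathway, was at 127, 85.2, 113 and 108 CPM in ONH and 415, 491, 436 and 405 CPM in ONP. For both genes each ONP pool held more than any ONH pool. Their means differed 4.2-fold for Cyp51 and 4.03-fold for Msmo1, with log2 fold changes of -2.07 ± 0.17 and -2.01 ± 0.17 (edgeR adjusted p = 0.000211 for each).

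Fatty acid synthesis and lipoprotein genes followed with 12 of 23 higher in ONP, 1 higher in ONH and a median of -0.91. Scd2, a stearoyl-CoA desaturase, was at 1273, 1423, 1732 and 1454 CPM in ONH and 3980.4, 4649.8, 4518 and 4883 CPM in ONP, without overlap. Acss2, which makes acetyl-CoA from acetate, had 62.9 ± 13.2 and 219 ± 34 CPM, and the elongase Elovl6 had 33.2 ± 7.02 and 108 ± 13.6 CPM. The exception was Fabp3, a fatty acid binding protein, with 8.94 ± 2.43 CPM in ONH and 1.38 ± 0.444 CPM in ONP. The number higher in ONP ranged from 8 to 13 without single pools, with 8 of them without ONP pool 2, 5 or 6.

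Markers of oligodendrocytes moved with these lipid genes. All 20 oligodendrocyte markers tested were higher in ONP, with a median log2 fold change of -1.86, and 19 to 20 remained called without single pools. Their summed level was 31878, 25870.4, 32727 and 50607 CPM in the ONH pools and 101921, 112143, 111332 and 132847 CPM in the ONP pools. Every ONP pool lay above every ONH pool. Mbp, myelin basic protein, was at 11416, 9791, 10113 and 19309 CPM in ONH and 38086, 37609.5, 38636 and 45751 CPM in ONP (log2 fold change -1.66 ± 0.23, edgeR adjusted p = 0.00117). Mag and Mog, also defining markers, differed by -1.85 ± 0.28 and -1.89 ± 0.30 on the log2 scale. The part of oligodendrocyte RNA in the lipid gene differences was not tested, and in pooled tissue fewer cells of a type and less RNA per cell cannot be told apart.

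Markers of oligodendrocyte precursors were also higher in ONP, as were genes that the marker lists do not hold. These lists are not complete, and the part of oligodendrocyte RNA in those genes was not tested. Of 9 precursor markers 5 were higher in ONP and 0 in ONH, while the defining markers Pdgfra and Cspg4 were not called, and the summed level was 409.6 to 580.2 CPM in ONH and 1545 to 1956 CPM in ONP. Gpr17, a receptor of precursors on the way to myelination, was at 21.3, 22.8, 9.62 and 28.4 CPM in ONH and 184, 202, 163 and 185 CPM in ONP (log2 fold change -3.16 ± 0.30, edgeR adjusted p = 0.000224). Anln, which encodes anillin, was at 23.8, 13.7, 23.9 and 28.2 CPM in ONH and 120.2, 190.2, 185 and 195 CPM in ONP. Klhl4, a kelch protein, was at 7.3, 1.97, 7.69 and 15 CPM in ONH and 68, 102, 102 and 79.5 CPM in ONP. Erbb3, a neuregulin receptor, was at 8.77, 3.75, 5.24 and 7.1 CPM in ONH and 47.5, 47.6, 40.6 and 41.5 CPM in ONP. Pools did not overlap for any of these 4 genes. Tmem229a had the smallest p-value of all genes, with 31.3, 30.3, 31.1 and 31.7 CPM in ONH and 148, 163, 160.1 and 168 CPM in ONP (log2 fold change -2.36 ± 0.14, edgeR adjusted p = 8.38e-05). Nfasc, the adhesion molecule of nodes and paranodes, was at 71.3, 59.4, 84.6 and 100 CPM in ONH and 354, 349, 341 and 399 CPM in ONP.

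**Figure D2:**
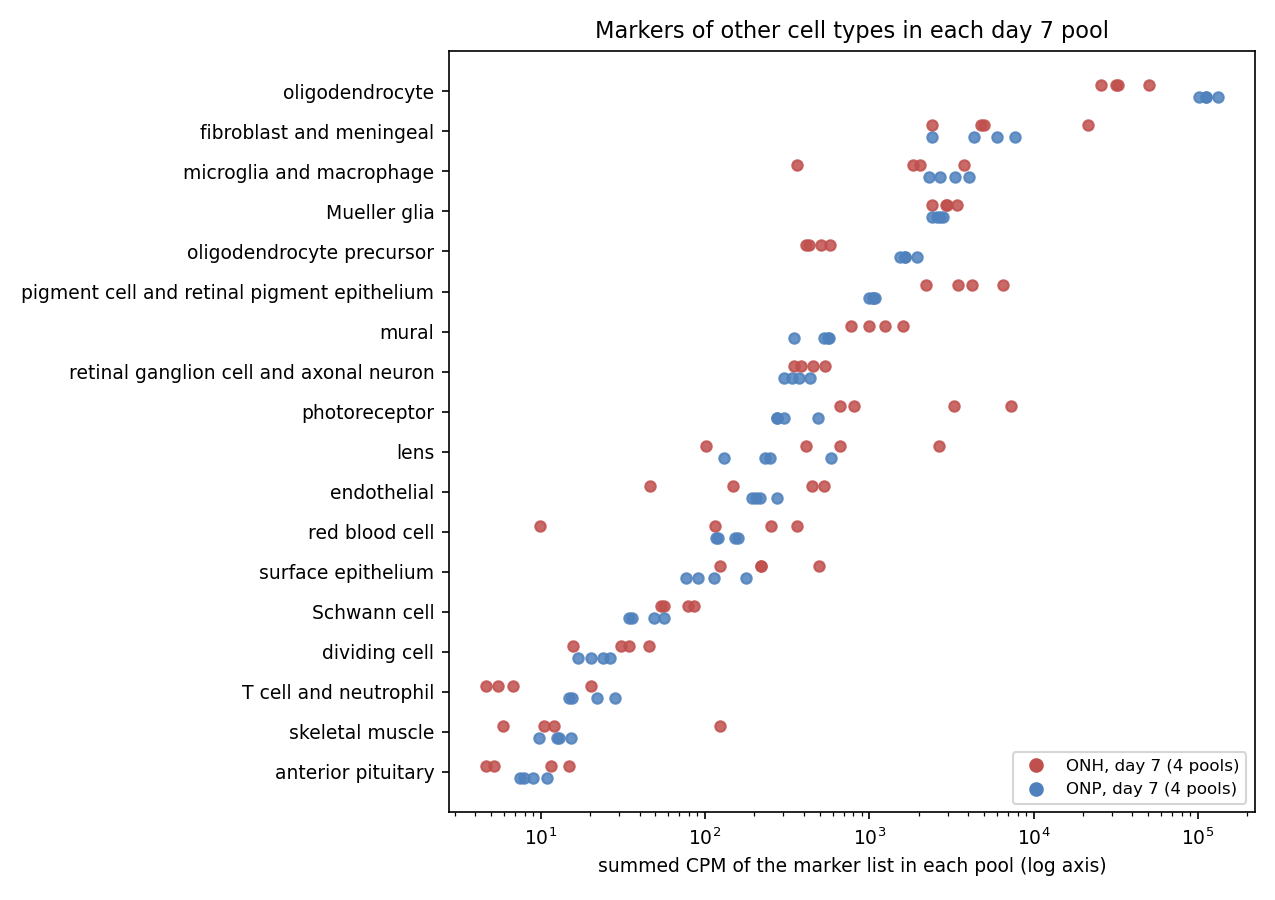
Summed CPM of 18 marker lists of other cell types in each day 7 pool, on a log axis, with 1 point per pool (ONH red, ONP blue). The pools of the regions do not overlap for 5 lists. Summed markers of oligodendrocytes and of their precursors are higher in ONP, and those of pigment cells, photoreceptors and mural cells are higher in ONH.

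Markers of cells around the nerve head stood out on the ONH side. Of 22 pigment cell and retinal pigment epithelium markers, 16 were higher in ONH and 1, Gpnmb, in ONP, with a median log2 fold change of 4.42. Their summed level was 3473, 2219, 4250.2 and 6540.2 CPM in ONH and 996, 1086, 1053 and 1052 CPM in ONP, without overlap. Dct, which encodes dopachrome tautomerase of melanin synthesis, was at 105, 44.7, 232 and 273 CPM in ONH and 2.66, 4.65, 0.976 and 0.74 CPM in ONP (log2 fold change 6.23 ± 0.76, edgeR adjusted p = 0.000605). Tyrp1, of the same pathway, was at 58.9, 16.5, 33.1 and 157 CPM in ONH and 0.302, 0.255, 0 and 0 CPM in ONP. Tyr, its rate-limiting enzyme tyrosinase, was at 17.6, 3.48, 6.89 and 44.1 CPM in ONH and 0.242, 0.255, 0.61 and 0.259 CPM in ONP. Pmel, of the melanosome fibrils, was at 72.3, 40.3, 132 and 271 CPM in ONH and 2.9, 0.509, 2.07 and 1.41 CPM in ONP. Mlana had 19.5, 17, 93.5 and 48.8 CPM in ONH, and Rpe65, the isomerase of the visual cycle, 67, 8.35, 46.5 and 179 CPM. ONH pool 6 was the highest for each of Dct, Tyrp1, Tyr, Pmel and Rpe65, pool 5 was the highest for Mlana, and pool 3 was the lowest for all 6.

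The promoters of the pigment markers that were called higher in ONH were read from RefSeq (GRCm38.p6), as the 250 bases before and 50 after the start of each gene. Of the 16 markers, 10 had a promoter in the table. The letters CATGTG, searched on both strands (CACATG is the same motif on the other strand), were present in 8 of the 10 promoters and in 4650 of all 32851 promoters, 14.2%. The letters CACGTG, which read the same on both strands, were in 0 of the 10 and in 7.15% of all. Such letters are known to be bound by MITF, the regulator of pigment cell genes, but a match is only a description of the sequence. The promoters of 3 of the melanin synthesis genes are shown 5′ to 3′ on the strand of the gene with the matches in capitals, from chr4:80833963-80834262 (plus strand), chr14:118052197-118052496 (minus strand) and chr7:87493463-87493762 (minus strand), in this order.
Tyrp1: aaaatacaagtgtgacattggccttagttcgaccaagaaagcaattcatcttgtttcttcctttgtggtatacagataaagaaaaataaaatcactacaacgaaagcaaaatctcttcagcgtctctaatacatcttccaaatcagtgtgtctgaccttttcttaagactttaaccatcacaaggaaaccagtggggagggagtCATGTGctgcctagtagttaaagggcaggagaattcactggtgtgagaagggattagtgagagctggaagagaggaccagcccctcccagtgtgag
Dct: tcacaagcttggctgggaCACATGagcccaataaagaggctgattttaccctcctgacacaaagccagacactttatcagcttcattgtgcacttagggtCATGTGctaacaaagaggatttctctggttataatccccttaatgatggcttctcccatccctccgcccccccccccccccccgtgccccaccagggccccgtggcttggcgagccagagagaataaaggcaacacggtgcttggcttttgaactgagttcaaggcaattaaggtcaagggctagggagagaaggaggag
Tyr: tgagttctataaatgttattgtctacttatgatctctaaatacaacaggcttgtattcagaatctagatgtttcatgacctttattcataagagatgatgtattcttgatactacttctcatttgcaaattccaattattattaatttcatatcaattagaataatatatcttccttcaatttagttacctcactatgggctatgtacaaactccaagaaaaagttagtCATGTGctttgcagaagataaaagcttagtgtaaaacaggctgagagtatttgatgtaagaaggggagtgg

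Photoreceptor markers were higher in ONH for 15 of 17 tested, and 0 were higher in ONP, with a median log2 fold change of 5.27. Their summed level was 663, 805, 3274 and 7271 CPM in ONH and 303, 274, 487 and 273 CPM in ONP. Pool 6 held the most in ONH and pools 1 and 3 came close to the ONP range. Sag, rod arrestin, was at 30.9, 32.5, 462 and 938 CPM in ONH and 2.48, 7.26, 22.7 and 2.33 CPM in ONP (log2 fold change 5.39 ± 1.25, edgeR adjusted p = 0.0174). Gnat1, rod transducin, was at 28.2, 37.8, 203 and 1184 CPM in ONH and 8.03, 11.2, 31.4 and 3.18 CPM in ONP. The calls of Sag and Gnat1 were lost without ONP pool 1, 2 or 6, and that of Gnat1 also in limma-voom. Over these fits the highest edgeR adjusted p was 0.0644 for Sag and 0.089 for Gnat1. The list count fell to 7 or 8 without ONP pool 1, 2 or 6 and to 4 in limma-voom with quality weights.

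Among the remaining lists, 4 of 11 mural cell markers were higher in ONH, the contractile genes Cnn1, Tagln, Myl9 and Acta2. The defining mural markers Pdgfrb and Rgs5 were not called. Acta2, smooth muscle actin, was at 91.2, 48, 192 and 264 CPM in ONH and 25.3, 17.6, 5.49 and 25.5 CPM in ONP. The summed mural level was 777 to 1612 CPM in ONH and 346 to 572 CPM in ONP. Of 9 markers of Mueller glia, the glia of the retina, 4 were higher in ONH and 1, Aqp4, in ONP. In this list 5 signs were positive and 4 negative, with a median log2 fold change of 0.51. The summed level of 2425 to 3401 CPM in ONH and 2397 to 2818 CPM in ONP overlapped. Rlbp1, the retinal glia marker of the visual cycle, was at 326, 252, 327 and 462 CPM in ONH and 133, 117, 106 and 124 CPM in ONP (log2 fold change 1.51 ± 0.20). Crym, another marker of that list, had 49, 5.08, 52.4 and 5.26 CPM in ONH and 0.302, 0, 0 and 0.037 CPM in ONP. Of 17 microglia and macrophage markers 0 were called in either direction by edgeR, 1 had an unadjusted p below 0.05, and 0 were called by DESeq2. In this list 2 signs were positive and 15 negative, with a median log2 fold change of -0.51. The summed level of 362 to 3793 CPM in ONH and 2313 to 4033 CPM in ONP overlapped, with ONH pool 3 the lowest of all 8 pools. Fibroblast and meningeal markers had 2 of 16 called, Col1a2 and Fmod, and summed to 2412 to 21347 CPM in ONH and 2405 to 7674 CPM in ONP. Of 13 markers of retinal ganglion cells and axonal neurons 5 were higher in ONH (2 to 6 without single pools, the fewest without ONP pool 2) and 3 in ONP, and their summed level was 350.1 to 539 CPM in ONH and 304 to 434 CPM in ONP. Pou4f2 of retinal ganglion cells had no counts in any ONP pool, Pmp2 had none in any ONH pool, and Prl, Gh, Ly6g and S100a8 had none in any of the 8 pools.

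Genes of the extracellular matrix were called on both sides, and the collagens that were called were mostly higher in ONH. Of 34 collagen genes tested, 12 were higher in ONH and 1 in ONP, with a median log2 fold change of 0.87, and 6 to 11 were higher in ONH without single pools, the fewest without ONP pool 2. Col8a1, of the short chain network collagen, was at 129, 78.6, 82.5 and 157 CPM in ONH and 16, 20.3, 15.9 and 18.5 CPM in ONP (log2 fold change 2.66 ± 0.26, edgeR adjusted p = 0.000224). Col1a2, a fibrillar collagen chain, was at 619.6, 556, 493 and 672 CPM in ONH and 147, 135, 79.5 and 178 CPM in ONP. Col9a1, of collagen IX, was at 33, 54, 30.2 and 47.3 CPM in ONH and 6.64, 7.64, 7.73 and 13.6 CPM in ONP. Each of these was higher in all ONH pools. Col1a2 is also a fibroblast marker. Of the 16 fibroblast and meningeal markers 15 had a positive sign, with a median log2 fold change of 1.01, 2 were called, and the summed level overlapped between the regions. Their part in the collagen differences was not tested.

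Among laminins, proteoglycans and matrix glycoproteins, 12 of 78 were higher in ONH and 11 were higher in ONP. These shares, 15.4% and 14.1%, stand beside 6.34% and 6.81% of all genes. On the ONH side were Fbln5, of elastic fibres (126 ± 58.3 CPM in ONH and 13.1 ± 3.84 CPM in ONP), Matn2, a matrilin (203 ± 60.6 and 62 ± 6.19 CPM), and Ecm1 (162 ± 44.3 and 46 ± 10.5 CPM). The ONP side held Tnr and Bcan, known from the matrix around nodes of Ranvier. Tnr, tenascin R, was at 8.55, 7.69, 4.61 and 6.04 CPM in ONH and 34.4, 54.4, 34.1 and 47.5 CPM in ONP (log2 fold change -2.66 ± 0.27). Bcan, the proteoglycan brevican, was at 113, 187, 143 and 115 CPM in ONH and 399.9, 374, 437 and 378 CPM in ONP. Matn4 was at 11.9, 21.8, 24 and 17.7 CPM in ONH and 72.3, 45.3, 71.9 and 56 CPM in ONP. Of 28 matrix metalloproteinases and inhibitors 6 (21.4%) were higher in ONH, among them the inhibitor Timp1 (21.2 ± 5.41 and 8.0 ± 2.05 CPM). Higher in ONP were 4 (14.3%), among them Adamts4, which cleaves such proteoglycans (92.7 ± 28.9 and 358 ± 41.2 CPM). The first list had 8 to 14 members higher in ONH and 7 to 13 in ONP with single pools left out, with 7 in ONP without ONP pool 1. The second had 2 or 3 higher in ONH without ONH pool 1 or ONP pool 5 or 6, and 1 higher in ONP without ONH pool 5 or any ONP pool.

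Genes linked to the reactive state of astrocytes were more often higher in ONH. Of 36 tested, 12 were higher in ONH and 1 in ONP, with a median log2 fold change of 0.77, and 8 to 11 were higher in ONH without single pools. H2-T23, a class I histocompatibility gene, was at 291, 503, 390.4 and 397 CPM in ONH and 156, 126, 110.1 and 164 CPM in ONP (log2 fold change 1.51 ± 0.20, edgeR adjusted p = 0.00105). Hspb1, a small heat shock protein, was at 299, 332, 479 and 318 CPM in ONH and 213, 186, 152 and 163 CPM in ONP. Both were higher in every ONH pool. Of the 12, Vim, Fbln5 and Timp1 are also members of lists described above. Psmb8 is also a member of the interferon response list and Hspb1 of the heat shock list, both given below. Interferon response genes had 8 of 38 higher in ONH and 0 in ONP, 37 had a positive sign and the median was 0.83, but the count ranged from 2 to 14 without single pools, with 2, 3, 4, 4 and 5 without ONP pool 6, ONP pool 2, ONP pool 5, ONH pool 1 or ONH pool 3, and 14 without ONP pool 1. Bst2, tetherin, was at 106, 171, 215 and 97.1 CPM in ONH and 58.4, 44.9, 49.8 and 46.4 CPM in ONP, and Ifi35 had 94 ± 16 and 37.9 ± 13 CPM. Of 20 complement genes, C2 was higher in ONH (45.1 ± 20.7 and 13.6 ± 4.44 CPM) and C4b and Masp1 were higher in ONP, C4b with 996, 802, 794 and 1042 CPM in ONH and 1658, 1618, 1456 and 1647 CPM in ONP, and Masp1 with 3.94 ± 2.16 and 26.8 ± 5.0 CPM.

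Among secreted signals and their receptors, most Wnt and TGF-beta genes were not called, and those called were mostly higher in ONH. Of 46 Wnt pathway genes 9 were higher in ONH and 2 in ONP (median log2 fold change 0.83), among them Rspo3, which enhances Wnt signalling (26.3 ± 3.51 CPM in ONH and 11.6 ± 1.64 CPM in ONP), and the receptor Fzd1 (143 ± 60.4 and 51.7 ± 6.77 CPM). Without ONP pool 2 or 6, 5 were called higher in ONH and 0 in ONP. Of 51 genes of the TGF-beta and BMP family 9 were higher in ONH and 0 in ONP, and 8 to 13 were higher in ONH without single pools. Fstl1, a follistatin-like secreted protein, was at 330.4, 250.2, 275 and 221 CPM in ONH and 90.5, 97.2, 71.6 and 119 CPM in ONP (log2 fold change 1.51 ± 0.20), Ltbp3, which holds latent TGF-beta in the matrix, had 72.7 ± 9.16 and 27.4 ± 5.29 CPM, and the ligand Gdf10 had 275 ± 66.4 and 93.2 ± 22.6 CPM. Of the IGF binding proteins, Igfbp4 was at 75.4, 36.3, 202 and 266 CPM in ONH and 7.25, 12.2, 9.89 and 12.4 CPM in ONP. Of 38 genes of the FGF, EGF and PDGF families 3 were higher in ONH (1 or 2 without single pools) and 6 in ONP (2 and 3 without ONP pool 2 or 6). These shares, 7.89% and 15.8%, stand beside 6.34% and 6.81% of all genes. Fgfr2, a fibroblast growth factor receptor, was at 94.4, 97.3, 109 and 103 CPM in ONH and 233, 257, 298 and 263 CPM in ONP. Among neuropeptide genes, Scg2, of secretory granules, and Adm, adrenomedullin, were higher in ONH beside Cartpt, with log2 fold changes of 6.42 ± 0.82 and 1.50 ± 0.27, and Apln, apelin, was higher in ONP (19.6 ± 4.31 CPM in ONH and 78 ± 10.8 CPM in ONP).

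Axon guidance genes were called in both directions, 7 of 66 higher in ONH and 9 in ONP, with members of one family on each side. These shares, 10.6% and 13.6%, stand beside 6.34% and 6.81% of all genes. Ephb2 was higher in ONH (18.2 ± 5.93 CPM in ONH and 4.85 ± 1.36 CPM in ONP) and its relative Ephb1 in ONP (54.6 ± 13.8 and 192 ± 30.5 CPM). Likewise Efna5, an ephrin ligand, was higher in ONH (17.1 ± 5.27 and 4.82 ± 1.36 CPM) and Efnb3 in ONP (30.6 ± 8.54 and 153 ± 21.2 CPM). Nrp1, a co-receptor of semaphorins, was at 55.3, 53.4, 52 and 88 CPM in ONH and 27.5, 24.1, 21.1 and 26.4 CPM in ONP, and the semaphorin Sema4d was at 122, 103, 174 and 194 CPM in ONH and 446, 515, 452 and 677 CPM in ONP.

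Channels and transporters of the ONP included those of myelinated axons and their glia. Of 48 potassium channel genes 9 were higher in ONP and 3 in ONH, of which 0 were called by edgeR without ONP pool 1 or 2 (median log2 fold change -0.33). The shares were 18.8% higher in ONP and 6.25% higher in ONH, beside 6.81% and 6.34% of all genes. Kcna1, of the axonal Kv1 family, was at 44.1, 42.3, 44.3 and 84.1 CPM in ONH and 235, 245, 194 and 251 CPM in ONP (log2 fold change -2.11 ± 0.24, edgeR adjusted p = 0.000456). Kcnk13, a background channel, was at 38.8, 29.8, 42.1 and 41.5 CPM in ONH and 109, 107, 120.3 and 126 CPM in ONP. Kcnn2, a calcium-activated channel, was at 0.436, 0.787, 0.455 and 0.168 CPM in ONH and 5.74, 3.69, 7.85 and 6.77 CPM in ONP. Pools did not overlap for these 3 genes. Of 9 connexins and pannexins tested 1, Gjc1, was higher in ONH, where the call held only without ONH pool 1 among the fits with a pool left out, and 3 were higher in ONP, or 2 without ONH pool 1 or 3 or ONP pool 2, 5 or 6 (median log2 fold change 0.25). The latter included Gjc3 (64.8 ± 24.6 and 270.0 ± 31.5 CPM in ONH and ONP) and Gjb1 (42.3 ± 15.2 and 139.8 ± 23.8 CPM), both known from myelinating glia. Tmem63a, an osmosensitive channel, had 131 ± 60.5 and 484 ± 72.2 CPM, and Trpm3, a heat- and steroid-gated channel, was higher in ONH, with 151, 76.6, 43.8 and 89.6 CPM in ONH and 8.88, 10.6, 4.48 and 18 CPM in ONP. Slco1c1, a thyroxine carrier, was higher in ONH (63.7 ± 15.9 and 9.14 ± 2.24 CPM), and Slc6a9, the glycine transporter, in ONP (33.7 ± 21 and 166 ± 13.6 CPM). Of 24 transmitter receptor genes, Grm3, a metabotropic glutamate receptor, and the AMPA receptor subunit Gria4 were higher in ONP, with log2 fold changes of -2.58 ± 0.29 and -2.40 ± 0.29, and the GABA receptor subunit Gabrg3 was higher in ONH, by 1.93 ± 0.27.

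Energy metabolism and protein synthesis showed small and mostly uncalled differences at day 7. Of 83 nuclear-encoded subunits of oxidative phosphorylation 4 were higher in ONH and 0 in ONP, with a median log2 fold change of 0.55 and 76 positive signs. Leaving out any ONP pool left 0 of them called, while DESeq2 called 16 and all 22 libraries in one fit 19. The number was 8, 1 and 2 without ONH pool 1, 3 or 5. Of 83 cytosolic ribosomal protein genes 2 were called, both higher in ONH, with a median of 0.44 and 82 positive signs, and DESeq2 called 5. Without single pools 1 to 4 were called, 4 of them without ONH pool 6. The 13 mitochondrially encoded genes gave 0 calls with edgeR, 0 at an unadjusted p below 0.05 and 0 with DESeq2 (median 0.10). The shares called by edgeR lie below the 6.34% of all genes called higher in ONH, whereas other counts of the first list lie above the background. Its pools did not overlap, with ONH above ONP, for 22 members (26.5%, beside 10.5% of all genes), and 37 had an unadjusted p below 0.05, all toward ONH. For the ribosomal protein genes these numbers were 11 (13.3%) and 21, again all toward ONH. Over all 14752 genes, 4264 had an unadjusted p below 0.05 in either direction. The share of 37 of 83 is larger even than that share of both directions. The 21 of 83 lie toward ONH only, so a share of both directions cannot place them above or below the background. At day 30 the first 2 lists had 62 and 81 members higher in ONH at medians of 0.66 and 0.79, with 0 members called by edgeR in the test of region by day. The mitochondrially encoded list had 8 of 13 higher in ONH at day 30, at a median of 0.86, also with 0 called in that test. Of all genes 21.8% were higher in ONH at day 30. Of 30 glycolysis genes 3 were higher in ONH and 1, Pdk4, in ONP, with a median of 0.12, 18 positive and 12 negative signs. Without ONP pool 1, 2 or 6 no member was called higher in ONP by edgeR, and without ONH pool 6 there were 3. Hk2, hexokinase, was at 37.1, 54.1, 46.6 and 32.8 CPM in ONH and 17.1, 12.9, 15.2 and 15 CPM in ONP (log2 fold change 1.50 ± 0.22), and Ldha, lactate dehydrogenase, had 1269 ± 221 and 737 ± 69.6 CPM.

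Of 36 genes linked to inherited glaucoma 9 were higher in ONH and 0 in ONP, with a median log2 fold change of 0.47, and 2 to 8 were called without single pools, with 2, 4, 3 and 4 without ONP pool 1, 2, 5 or 6 and 4 without ONH pool 1. Six6 is a member of this list too. Of 30 immediate early genes 4 were higher in ONH, 13.3% beside 6.34% of all genes, and 0 in ONP. The ONH count was 2 without ONP pool 2, 5 or 6 and 7 without ONH pool 6. Of 33 heat shock protein genes 1, Hspb1, was higher in ONH and 0 in ONP, where 3 were called without ONH pool 5 and 1 without ONH pool 6. Hspb1 alone makes 3.03% of that list, beside 6.34% of all genes. Solute carriers were called for 16 of 263 in ONH and 30 in ONP, 6.08% and 11.4%, beside 6.34% and 6.81% of all genes. The ONP count was 19 without ONP pool 2, 5 or 6, and scaling to library size alone gave 24 on each side. Of 28 cadherins and claudins 4 were higher in ONH and 5 in ONP, 14.3% and 17.9%, beside 6.34% and 6.81% of all genes. The ONH count was 2 without any one of the ONP pools. The ONP count was 2, 3 and 3 without ONP pool 2, 5 or 6. Of 27 integrins 1 was higher in ONH (0 to 2 without single pools), of 29 Notch and Hedgehog genes 2 were higher in ONH (0 to 5) and 1 in ONP, and of 6 endothelin system genes 1 was higher in ONH (0 to 1). These ranges include 0 without ONP pool 1, 2 or 6 for each of the 3 lists, and the highest counts of the integrins and of the Notch and Hedgehog genes came without ONH pool 6. The shares higher in ONH were 3.70% of integrins, 6.90% of Notch and Hedgehog genes and 16.7% of endothelin system genes, beside 6.34% of all genes. The share of Notch and Hedgehog genes higher in ONP was 3.45%, beside 6.81% of all genes.

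**Figure D3:**
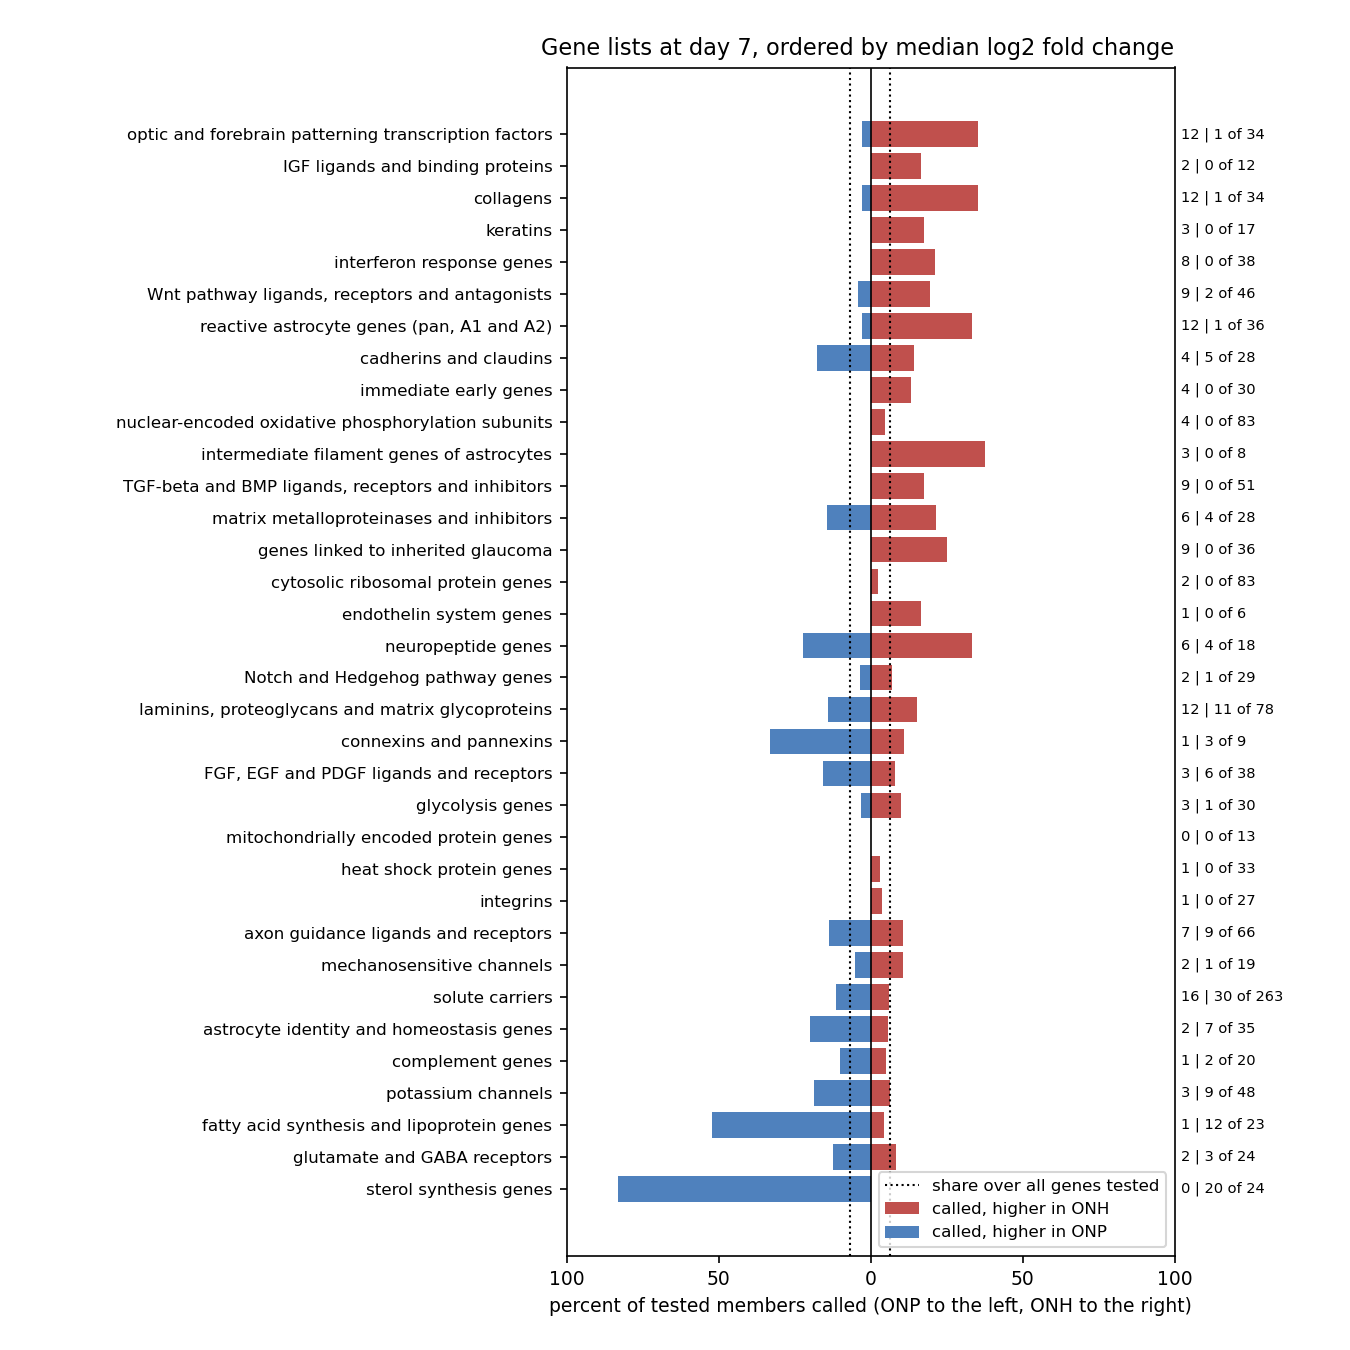
Percent of the tested members of each gene list that were called at day 7, to the right for those higher in ONH (red) and to the left for those higher in ONP (blue), with dotted lines at the shares over all genes tested (6.34% and 6.81%) and the counts at the right edge (higher in ONH, then higher in ONP, of genes tested). Lists are ordered by their median log2 fold change, from patterning factors at the top to sterol synthesis at the bottom, where 20 of 24 members are higher in ONP.

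The regional differences of day 7 were set beside those of day 30, whose 14 libraries are separate ones. At day 30, 3296 of 15133 genes were higher in ONH (21.8%) and 3026 were higher in ONP (20.0%), with 7 libraries per region in place of 4. Of 1917 genes called at day 7 and tested at day 30, 1853 had the same direction there, 96.7%, beside 76.0% of all 14447 genes tested at both days. A total of 1602 were also called in that direction at day 30. Of the genes called higher in ONP at day 7, 872 of 1003 had a larger absolute log2 fold change at day 7 than at day 30, with medians of 1.34 and 0.85. For those higher in ONH it was 584 of 914, with medians of 1.25 and 1.07. Genes were called at day 7 by their day 7 values, which favours larger values at that day.

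The test of region by day found 91 of 16748 genes (0.543%) whose regional difference was not the same at both days, 57 of them called at day 7. In 47 of these 57 the difference at day 7 lay further toward ONP than at day 30, and in 10 it lay further toward ONH. DESeq2 called 409 genes in this test, and no filter on low counts left 50. Unc13c and Rph3a, both genes of vesicle priming, were less different between the regions at day 7 than at day 30. Unc13c was at 1332, 419, 752 and 517 CPM in ONH and 271, 217, 184 and 131 CPM in ONP at day 7, and at 544 ± 199 and 19.7 ± 4.62 CPM at day 30 (mean ± SD, n = 7). Its log2 fold change was 1.91 at day 7 and 4.79 at day 30, a difference of -2.91 ± 0.44 (edgeR adjusted p = 0.00423), and that of Rph3a was 2.44 and 5.17. Mgarp, Flt3, a receptor tyrosine kinase, and Abi3bp, a matrix protein gene, differed in the same sense, with log2 fold changes of 4.30, 3.23 and 1.59 at day 7 and 6.35, 6.20 and 3.60 at day 30.

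Other genes were called higher in ONH at day 7 with a smaller or an opposite difference at day 30. Igfbp4 had a log2 fold change of 3.80 at day 7 and 0.98 at day 30, Socs2, a suppressor of cytokine signalling, 2.13 and 0.14, and 1500015O10Rik 3.32 and 0.04. For Nr2e1, a neural progenitor receptor gene, the values were 1.59 and -0.41, for Rgs7bp 1.72 and -0.91 and for the neuropeptide Cck 1.98 and -1.81. The day 7 calls of Nr2e1, Rgs7bp and Cck did not hold in 6, 2 and 7 of the 8 fits with a pool left out, where their highest edgeR adjusted p was 0.0918, 0.0557 and 0.131. Nr2e1 kept it without ONH pool 5 or 6, Cck without ONH pool 3, and Rgs7bp lost it without ONP pool 2 or 6. Synpr, of synaptic vesicles, and Kcnj10 were higher in ONP at day 7 and higher in ONH at day 30. Their log2 fold changes were -2.08 and -0.78 at day 7 and 1.03 and 0.70 at day 30. The day 7 call of Synpr was lost without ONP pool 1, 2 or 6. That of Kcnj10 was lost without ONH pool 1 or 6 or ONP pool 1, 2 or 6, and with length and GC offsets. Plekha1, a phosphoinositide binding protein, Nfasc and Cyp51 were higher in ONP at both days and more so at day 7, with log2 fold changes of -2.01, -2.20 and -2.07 at day 7 and -0.60, -0.99 and -0.87 at day 30.

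**Figure D4:**
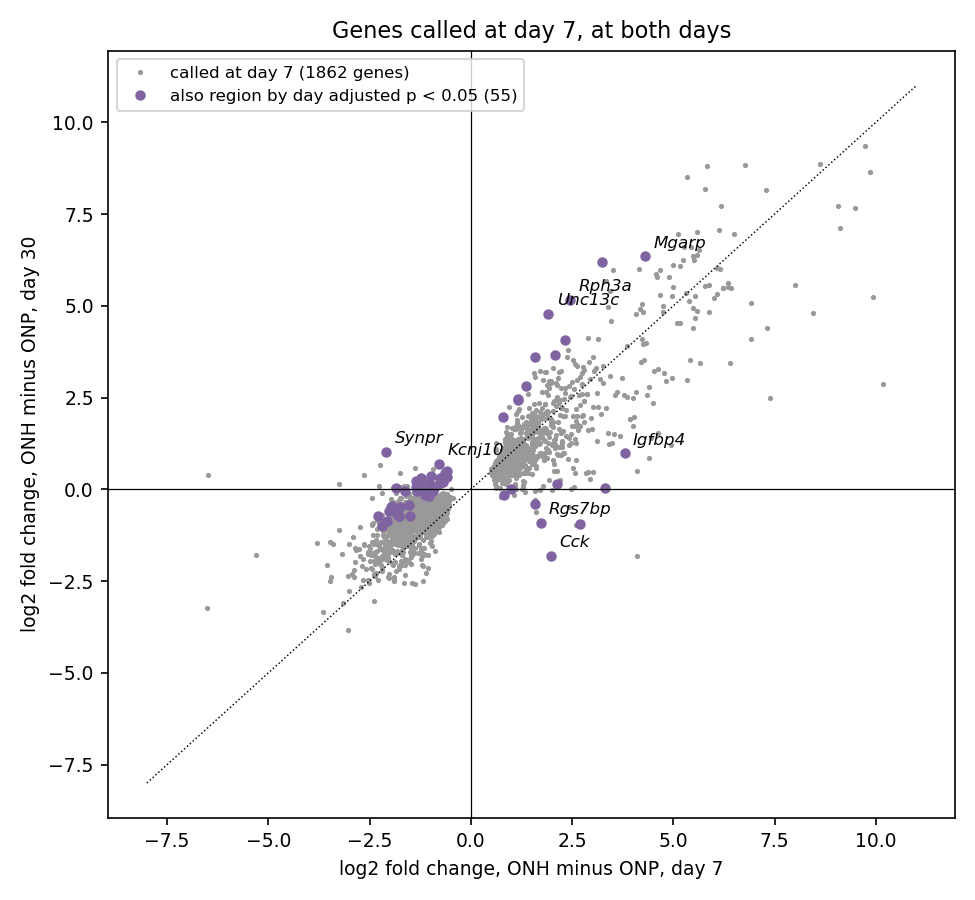
Log2 fold change of ONH over ONP at day 7 (x axis) and day 30 (y axis) for the 1917 genes called at day 7 and tested at both days, with the 55 genes of these that pass the test of region by day in purple and a dotted line of equal values. Most genes lie in the quadrants of equal direction (1853), and Cck, Rgs7bp, Synpr and Kcnj10 are among those in the other quadrants.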

How the data were processed

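mRNA bound to HA-tagged ribosomes of ONH and ONP was sequenced as paired reads of 150 bases. Per the labels and the study's methods, the authors aligned reads to mm10 with STAR 2.6.1d and quantified Ensembl transcripts with Salmon 0.14.2. Estimated counts, summed over the transcripts of a gene and rounded, were deposited unnormalized by the authors. A second deposited table held log2 values from the variance stabilizing transformation of DESeq2 1.34.0 in R 4.1.0, used here only for the principal components.

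Columns were assigned to groups by their names. Genes were filtered with filterByExpr, scaled by TMM and tested with the quasi-likelihood test of edgeR 4.0.16 (R 4.3.3), two-sided, over 8 libraries, p-values being adjusted by the Benjamini-Hochberg method across 14752 genes, threshold 0.05. CPM are scaled by TMM. SE are standard errors of log2 fold changes. Day 30 (14 libraries) and the interaction (22 libraries) were fitted likewise. Nothing states that libraries of a region came from repeated experiments, so p-values measure the spread between pools. DESeq2 1.42.0, limma 3.58.1 (voom), other scalings, filters, length and GC offsets (mgcv 1.9.3) and single pools left out were alternatives. The functions were tested on simulated data. Positions came from GENCODE M21 (GRCm38). The libraries compared, the 35 gene lists and 18 marker lists were chosen with earlier results of these data known, and some listed genes were named by the study from these samples. Without stated strandedness, reads of overlapping and near-identical genes cannot be told apart.

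Named genes were, in each direction, the 12 largest changes and the 8 smallest p-values among called genes with non-overlapping pools and at least 5 CPM in the higher region, 10 genes the study names for the regions, up to 3 called members per list and direction with at least 1 CPM, all called astrocyte identity genes with 6 astrocyte markers, the 6 largest interactions in each direction, and defining markers. Repeats were left out, and a few named genes are not reported here.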

Additional observations from a re-analysis of the deposited data

Results flagged for a closer look

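Among the 126 genes named with values, 13 of 249 groups of 4 pools had 1 pool far from the other 3 by Dixon's test at the 95% level, where chance gives about 1 in 20. ONH pool 6 was the high one in 5 of them: Gnat1 at 1184 CPM (28.2 to 203 in the others), Mbp at 19309 (9791 to 11416), Kcna1 at 84.1 (42.3 to 44.3), Nrp1 at 88.0 (52.0 to 55.3) and Gria4 at 7.66 (3.87 to 4.03). The same pool had the highest summed markers of photoreceptors, pigment cells, oligodendrocytes and fibroblasts of the 4 ONH pools. ONP pool 1 was low for Anln at 120.2 CPM and high for Prss56 at 4.47 and Crym at 0.302. ONP pool 6 was high for Mbp at 45751, Acss2 at 269.6 and Col9a1 at 13.6 CPM, ONP pool 2 for Mab21l1 at 0.191 and ONP pool 5 for Tyr at 0.61.

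For 16 named genes the regional difference itself differed between day 7 and day 30 (edgeR test of the interaction). The difference of the log2 fold changes, day 7 minus day 30, was 3.76 for Cck, 3.26 for 1500015O10Rik, 2.80 for Igfbp4, 2.61 for Rgs7bp, 1.97 for Nr2e1 and 1.97 for Socs2. It was -3.13 for Synpr, -2.99 for Flt3, -2.91 for Unc13c, -2.76 for Rph3a, -2.08 for Mgarp, -2.03 for Abi3bp, -1.52 for Kcnj10, -1.43 for Plekha1, -1.23 for Nfasc and -1.23 for Cyp51.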

How the results depend on the processing

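The counts of genes called at day 7 were 3211 (1656 higher in ONH and 1555 in ONP) with DESeq2 and 3785 (1987 and 1798) with all 22 libraries in one fit. With single pools left out they ranged from 1102 to 2379 in all, 471 to 1136 higher in ONH and 631 to 1243 higher in ONP. Leaving out ONH pool 1 or 3 or ONP pool 6 reversed the sign of the uncalled difference in Gfap, to -0.0040, -0.22 and -0.064 (range -0.22 to 0.18 over all pools), and leaving out ONH pool 1 that of Sox9, to -0.043 (range -0.043 to 0.37). The interaction gave 409 calls with DESeq2 and 50 without a filter on low counts. The share of day 7 calls with the same direction at day 30 was 93.9% with DESeq2 calls and 96.6% without the marker genes, an alternative chosen after seeing the data. The causes were not tested. Apart from the fits over 6 pools given below, the other alternatives kept the counts within 1.5 times. Of 121 called genes named with values, 109 kept the call in all 8 fits with a pool left out, and 112 in all other alternatives that could test them. Many of these genes were named for small p-values or large changes, which favours keeping the call. Of all 1940 calls, 66.4%, 57.5%, 59.0% and 55.3% were kept without ONP pool 1, 2, 5 or 6. Without ONH pool 1, 3, 5 or 6 it was 79.6%, 72.4%, 83.2% and 91.0%.

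At day 7 the labels do not tie the numbered columns to the numbered samples, and 3 column numbers, 1, 5 and 6, occur in both regions. Over these 6 pools, an alternative added after seeing the data, a replicate block gave 879 calls (404 higher in ONH and 475 in ONP) beside 913 (394 and 519) without it. Same-numbered pools correlated at 0.0342 to 0.156 in their deviations, and 2 of 3 ONH pools correlated best with their own number. At day 30 a fit with the replicate number as a block called 6717 genes beside 6322 without it. Tissue of both regions came from the same mice, but in the labels ONH and ONP samples share only a number. At day 30 same-numbered libraries correlated at 0.0748 to 0.495 in their deviations, and 3 of 7 ONH libraries correlated best with their own number.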

Other observations

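Some genes that differed by day lay outside the rule for named genes, because their difference at day 7 was not called, and were chosen here after their values were seen. Myoc, which encodes the glaucoma-linked protein myocilin, had a mean of 3.25 CPM in ONH and 0.363 CPM in ONP at day 7, and 1.6 and 18.4 CPM at day 30 (edgeR adjusted p of the interaction = 0.0271). Ccdc3, a secreted protein gene, had 7.49 and 11.9 CPM at day 7 and 2.03 and 69.7 CPM at day 30 (edgeR adjusted p = 0.00415). Wif1, a secreted Wnt inhibitor, had 53.9 and 44.8 CPM at day 7 and 56 and 8.36 CPM at day 30 (edgeR adjusted p = 0.0106).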
